A study of Sylvia borin with 20 samples.

Results

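The genes described here encode the subunits of heterotrimeric G proteins and the regulators of G protein signaling (RGS) in the whole blood of garden warblers (*Sylvia borin*). Members were all gene symbols of the deposited tables that start with GNA, GNB, GNG or RGS and follow the naming of these families, which gave 48 of 20898 symbols. They were 13 alpha, 4 beta and 8 gamma subunits, 21 RGS genes, and the membrane anchors RGS7BP and RGS9BP. Migrating birds were captured in spring, kept in single cages with food, and bled on day 1, when they were lean, and again on day 5, when they were fat. Both samples came from the same 10 wild birds, which gave 10 lean and 10 fat libraries, and no sex, age or other treatment is given in the labels. Each fat library was paired with the lean library of the same replicate number, which here is called a bird.

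A G protein couples a receptor in the cell membrane to enzymes inside the cell. The alpha subunit holds GDP at rest and binds the paired beta and gamma subunits; an active receptor makes it exchange GDP for GTP, and alpha and beta-gamma then act on separate effectors. The families differ in their targets. Gs stimulates adenylyl cyclases, Gi inhibits them, Gq activates phospholipase C beta and G12/13 acts on the cytoskeleton. RGS proteins end the signal by speeding GTP hydrolysis on the alpha subunit. In mammals these pathways drive platelet activation and leukocyte migration, and Gs-coupled receptors raise cyclic AMP in the nucleated red cells of birds.

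Levels are given as normalized FPKM, that is, fragments scaled for transcript length and library size as deposited, divided by a median-of-ratios factor for each library. The unit is per length, which corrects levels of different genes for length only. Warbler reads were aligned to the zebra finch genome, and differences between genes in alignment were not assessed. Ranks and shares of genes are therefore approximate, and a value of 0 need not mean absence. A gene had to average 0.1 FPKM over the deposited tables to be analyzed, which left 20 of the 48 members and 7800 of all symbols. Fat and lean libraries were compared on log2(normalized FPKM + 0.1) with limma, with bird as a block and Benjamini-Hochberg adjustment over the 7800 genes. A gene was called at an adjusted p under 0.05. The added 0.1 makes the fold changes of genes near 0 too small. Without read counts in the tables, the counting error of a single gene is unknown.

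The libraries held 0.882 to 4.71 gigabases of aligned reads, with a median of 1.66 in lean and 2.34 in fat libraries. Over all genes, a median of 8123.5 symbols were above 0 in lean and 7267.5 in fat libraries. Members seen in a few lean libraries and in no fat one are to be read against this difference. The scaling factors averaged 1.14 ± 0.0758 on day 1 and 0.925 ± 0.117 on day 5 (SD, n = 10 libraries each), so lean values were on average scaled down and fat values up. Under the scaling used, the median log2 fold change of all genes was −0.10. It was −0.35 for FPKM as deposited, −0.43 for TPM as deposited and 0.04 after quantile normalization, and the share of lower genes among all calls was 60.9%, 95.1%, 97.4% and 52.3% in that order. The lean library of bird 2 stood apart for the genes described here. It was the shallowest of all libraries, at 0.882 gigabases, and the highest lean library for 10 of the 20 analyzed members, while the lean library of bird 8 was the highest for 5.

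Of the 20 analyzed members, 8 fell in fat birds and 0 rose. Those that fell were the beta subunit *GNB1*, the alpha subunits *GNAI2*, *GNA11* and *GNAI3*, and the regulators *RGS19*, *RGS14*, *RGS2* and *RGS18*. Across all genes analyzed, 8.08% were called lower and 5.18% called higher, and an unadjusted p under 0.05 was reached by 12 members and 2347 of all genes. The median log2 fold change was −0.43 over the 20 members and −0.10 over all genes. The estimate was negative for 17 of 20 members and for 57.0% of all genes analyzed. After quantile normalization it was negative for 14 of 20 members, where the median of all genes was 0.04. The members were chosen with earlier results of these data known, and the filter on low values decides which of them appear in these counts. Among the 13 members above 0 in every library, 7 were called lower, and among the 4475 such genes of all kinds 398 were.

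The calls depended on the pairing. Without bird as a block, only *GNB1* remained called (adjusted p = 0.0167), where 3.27% of all genes were called lower. Leaving out both libraries of bird 2, or of bird 10, left 3 of the 8 calls, *GNB1*, *GNAI2* and *RGS19*, and *GNAL* was newly called without bird 10. Without bird 7 or 8, 4 of the 8 were left, without bird 1, 5 or 6, 5 were, and without the other birds 6 or 7. *GNB1*, *GNAI2* and *RGS19* were called in each of the 10 fits that left out 1 bird. Calls over all 7800 genes changed as well. Genes called lower numbered 630 with all birds, 358 without bird 2 and 336 without bird 10. Without any other bird they numbered between 406 and 708. In the 8 birds whose library codes match the sample table of the study, *GNB1* was the 1 call left of the 8 (adjusted p = 0.0278), with *GNAI2* at 0.0578 and *RGS19* at 0.0676, and *GNAL* was newly called. Over all genes, 172 were called lower in those 8 birds. No member had lean and fat values that did not overlap, which 0.103% of all genes had. Of the 20 members, 9 were lower in fat in at least 9 of 10 birds, against 8.17% of all genes. *GNB1* and *RGS14* were lower in all 10, as were 167 of the 7800 genes analyzed.

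**Figure D1:**
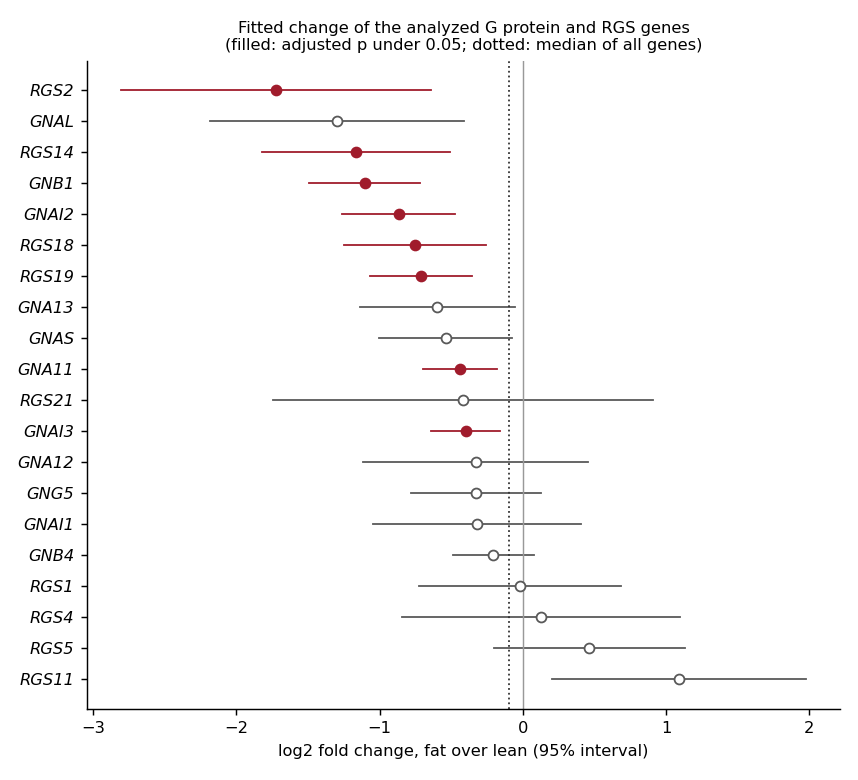
Fitted log2 fold change (fat over lean, x axis) with its 95% interval for the 20 analyzed members, ordered by size; filled points have a limma adjusted p under 0.05 and the dotted line is the median of all genes (−0.10). The 8 filled points lie between −1.72 and −0.40, and 3 estimates (*RGS4*, *RGS5* and *RGS11*) lie above 0; *GNA12*, *GNAI1* and *RGS1* also lie above 0 after quantile normalization.

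*GNB1* encodes a beta subunit, the propeller-shaped partner of alpha and gamma. In lean libraries it ranged from 3.52 to 11.99 normalized FPKM with a median of 5.24, and in fat libraries from 1.44 to 4.58 with a median of 2.46. The lean library of bird 2 was the highest, followed by bird 6 at 8.20, and 8 of the 10 fat libraries lay below the lowest lean value. The groups still overlapped, through the fat libraries of birds 1 and 2. The gene fell in fat birds by 1.10 on the log2 scale (SE 0.18, adjusted p = 0.0039), to 44.6% of the lean mean, and it was lower in 10 of 10 birds. It was called under each of the other 10 settings tried.

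*GNB4*, the other beta subunit with an appreciable level, ranged from 5.45 to 9.70 (median 7.19) in lean and from 4.59 to 7.70 (median 6.32) in fat libraries. The groups overlapped over most of their range, and 8 birds were lower in fat. Its estimate was −0.21 (SE 0.13, adjusted p = 0.315), with a 95% interval from −0.49 to 0.08. It was called only when FPKM or TPM was used as deposited. The ratio of *GNB1* to *GNB4* had a median of 0.712 in lean and 0.374 in fat libraries and was lower in 9 of 10 birds. *GNB2* had no symbol in the deposited tables, so shares refer to the 4 listed beta genes. Put as a share of their FPKM, *GNB1* made up 43.1 ± 7.59% on day 1 and 28.9 ± 7.99% on day 5 (SD, n = 10 libraries each). These ratios were chosen after the values of the genes were seen and were not tested. The remaining beta genes were at 0 in most libraries. *GNB3*, a subunit of cone photoreceptors in mammals, and *GNB5*, the partner of the R7 group of RGS proteins, were each above 0 in 1 lean and 1 fat library.

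Gamma subunits carry the lipid anchor of the complex. Nearly all FPKM of the 8 listed gamma genes came from *GNG5*. It made up 99.3 ± 1.15% on day 1 and 99.3 ± 1.39% on day 5 (SD, n = 10 libraries each). It ranged from 5.72 to 27.7 (median 12.01) in lean and from 3.80 to 30.1 (median 9.59) in fat libraries. Spread within a group was wide, with the lean and the fat library of bird 8 each the highest of its group. The estimate of −0.33 (SE 0.21, adjusted p = 0.310) did not pass, and 7 of 10 birds were lower in fat. *GNG5* was called only with FPKM or TPM as deposited (adjusted p = 0.0384 and 0.0146). Of the other gamma genes, *GNG7* was above 0 in 5 lean and 5 fat libraries, *GNG2* in 3 and 2, *GNG10* in 2 and 1, and *GNG12* in 1 and 1. *GNG3*, *GNG4* and *GNG13* were listed at 0 throughout. Under the scaling used, no gamma gene was called beside *GNB1*.

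Among the alpha subunits, the Gi group had the highest levels. *GNAI3*, at rank 1205 of the 7800 genes by mean, had the highest mean FPKM of all members. It ranged from 12.1 to 31.7 (median 17.8) in lean and from 8.003 to 21.8 (median 12.9) in fat libraries. Bird 8 had the highest value in both groups, and 3 fat libraries lay below the lowest lean value. *GNAI3* fell by 0.40 on the log2 scale (SE 0.11, adjusted p = 0.0337) and was lower in 9 of 10 birds. Without the replicate block the adjusted p was 0.232, and the call was lost without any one of birds 1, 2, 3, 6, 7, 8 or 10 (adjusted p up to 0.0797).

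*GNAI2*, the Gi subunit that is prominent in mammalian leukocytes, ranged from 6.37 to 22.1 (median 8.27) in lean and from 2.86 to 8.80 (median 6.08) in fat libraries. The lean libraries of birds 8 and 2, at 22.1 and 21.9, stood above the third at 13.1. The fat values overlapped the lower lean values, and 5 fat libraries lay below all lean ones. *GNAI2* fell by 0.87 (SE 0.18, adjusted p = 0.0115), to 51.6% of the lean mean, and was lower in 9 of 10 birds. Bird 9, counted as lower, and bird 4, counted as higher, were both nearly level (−0.0198 and 0.0166 on the log2 scale). Its adjusted p was 0.0602 without the replicate block and 0.0578 in the 8 birds with matching codes. In the annotation it shares 741 bases at one end with *GNAT1*, the rod photoreceptor alpha subunit on the opposite strand, which was at most 0.0246 in any library. *GNAI1*, the third Gi subunit, was far lower, with medians of 0.535 in lean and 0.340 in fat libraries. It was lower in 5 birds and higher in 5, and its estimate was −0.32 (SE 0.34, adjusted p = 0.558), and 0.13 after quantile normalization.

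*GNA11* encodes a Gq family subunit and was the only member of that family in the set. It ranged from 10.45 to 19.6 (median 13.5) in lean and from 7.82 to 15.4 (median 10.3) in fat libraries. The lean libraries of birds 1 and 2 were the highest, at 19.4 and 19.6, and 5 fat libraries lay below the lowest lean one. It fell by 0.44 (SE 0.12, adjusted p = 0.0314) and was lower in 9 of 10 birds, bird 5 being the exception. Its adjusted p was 0.0913 without the replicate block, and the call was lost without any one of birds 1, 2, 7, 8 or 10 (adjusted p up to 0.0630).

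The Gs group did not pass the test. *GNAS*, the general stimulator of adenylyl cyclases, ranged from 2.73 to 6.79 (median 4.42) in lean and from 1.42 to 4.82 (median 3.12) in fat libraries. Bird 6 had both the highest lean and the lowest fat value, and the groups overlapped widely. Its estimate was −0.54 (SE 0.22, adjusted p = 0.113), with 7 of 10 birds lower. *GNAS* was called only with FPKM or TPM as deposited (adjusted p = 0.0134 and 0.0074). *GNAL*, the Gs subunit of olfactory neurons in mammals, was low, from 0 to 1.35 (median 0.190) in lean and from 0 to 0.135 (median 0.0483) in fat libraries. The highest fat value was exceeded by 8 lean libraries, and 9 birds were lower in fat. Its estimate of −1.30 (SE 0.41, adjusted p = 0.0531) did not pass. It was called without bird 10 (adjusted p = 0.0302), in the 8 birds with matching codes (0.0484), and with FPKM or TPM as deposited (0.0292 and 0.0198).

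The G12/13 subunits did not pass the test either. *GNA13* ranged from 0.744 to 3.33 (median 1.37) in lean and from 0.413 to 1.29 (median 1.08) in fat libraries, with 9 of 10 birds lower. Bird 9 gave the highest lean value, and 6 lean libraries exceeded the highest fat one. Its estimate of −0.60 (SE 0.25, adjusted p = 0.130) did not pass. *GNA13* was called only with FPKM or TPM as deposited (adjusted p = 0.037 and 0.021). *GNA12* was at most 0.448 in any library, and its estimate of −0.33 (SE 0.37, adjusted p = 0.576) was 0.19 after quantile normalization. The specialized alpha subunits were at 0 in most or all libraries. *GNAO1* of neurons was above 0 in 1 lean library, *GNAZ* in 3 lean and 2 fat libraries, and *GNAT1* in 2 and 2. The cone and taste subunits *GNAT2* and *GNAT3* were listed at 0 in every library.

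**Figure D2:**
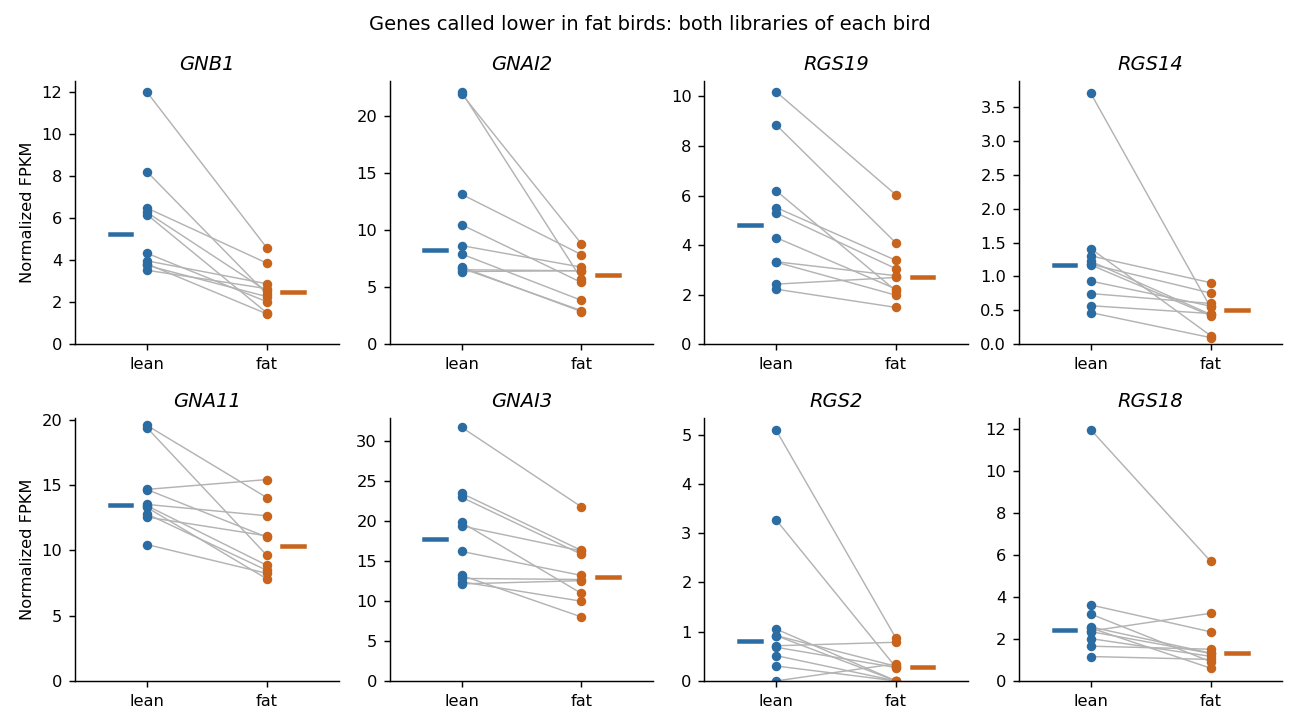
Normalized FPKM (y axis, from 0) of the 8 members called lower, in the lean and fat library of each of 10 birds; gray lines join the libraries of a bird and short bars are group medians. *GNB1* and *RGS14* were lower in all 10 birds, *RGS2* in 8 and the other 5 genes in 9, and bird 2 had the highest lean value in 6 of the 8 panels.

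*RGS19* belongs to the RZ group, which acts on Gi family subunits, and it had the highest level of any RGS gene. It ranged from 2.22 to 10.2 (median 4.80) in lean and from 1.48 to 6.03 (median 2.73) in fat libraries. Bird 2 was the highest in both groups, bird 4 was the only one not lower in fat, and 3 lean libraries exceeded the highest fat one. *RGS19* fell by 0.71 (SE 0.17, adjusted p = 0.0164), to 57.8% of the lean mean. Its adjusted p was 0.134 without the replicate block, 0.0676 in the 8 birds with matching codes, and between 0.0102 and 0.0401 when any one bird was left out. Of the other RZ genes, *RGS17* was above 0 in 4 lean libraries, at up to 0.715, and in no fat library, and *RGS20* was listed at 0.

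*RGS14*, of the R12 group, binds Gi subunits through a second domain besides the RGS domain, and also RAP GTPases. It ranged from 0.467 to 3.70 (median 1.18) in lean and from 0.0974 to 0.908 (median 0.498) in fat libraries. The lean library of bird 2 was far above the next at 1.41, and 7 lean libraries exceeded the highest fat one. It fell by 1.16 (SE 0.31, adjusted p = 0.0253) and was lower in 10 of 10 birds, by 0.27 to 2.74 on the log2 scale. The adjusted p was 0.0584 without the replicate block, and without bird 2 the gene was no longer called, nor without bird 5 or bird 10 (adjusted p up to 0.0615). The call was also lost after quantile normalization (adjusted p = 0.0910) and with no filter on low values (0.0516). The R12 genes *RGS10* and *RGS12* were above 0 in 3 lean and 1 fat, and in 1 lean and 1 fat library.

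The R4 group holds small RGS proteins that are little more than the RGS domain. *RGS18*, which is abundant in mammalian platelets, ranged from 1.16 to 11.96 (median 2.45) in lean and from 0.607 to 5.70 (median 1.32) in fat libraries. Both extremes at the top came from bird 2, and the next lean value was 3.62. It fell by 0.75 (SE 0.23, adjusted p = 0.0457), with 9 of 10 birds lower and bird 3 higher. The adjusted p was 0.238 without the replicate block, and the call held only when bird 3 was the one left out (adjusted p up to 0.0950 otherwise). The call was also lost after quantile normalization (adjusted p = 0.179) and with no filter on low values (0.0732).

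*RGS2*, which in mammals prefers Gq subunits and responds quickly to stimuli, was listed at 0 in the lean library of bird 1 and in 4 fat libraries. Lean values reached 5.09 (median 0.817) and fat values 0.867 (median 0.274). Birds 2 and 8 gave the high lean values, at 5.09 and 3.27, while the third lay at 1.05, and 5 lean libraries exceeded the highest fat one. It fell by 1.72 (SE 0.50, adjusted p = 0.0386), and 8 of 10 birds were lower. With values at 0 the size depends on the pseudocount: the estimate was −2.76 at 0.01, where it was not called (adjusted p = 0.0972), and −0.69 at 1, where it was (0.0331). The adjusted p was 0.0920 without the replicate block, 0.0740 after quantile normalization and 0.0949 with no filter on low values. The call remained only without bird 1 or without bird 4 (adjusted p up to 0.0936 otherwise), the birds in which the gene was higher in fat.

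The other R4 genes did not pass. *RGS5*, known from mammalian pericytes, was above 0 in all libraries, from 0.397 to 2.11 (median 0.975) in lean and from 0.573 to 2.54 (median 1.40) in fat. In fat, 6 birds were higher and 4 lower, and the estimate was 0.47 (SE 0.31, adjusted p = 0.334). *RGS21*, known from mammalian taste cells, reached 2.71 in lean and 1.97 in fat libraries, with 0 in some libraries of both groups, and its estimate was −0.42 (SE 0.62, adjusted p = 0.688). *RGS1*, a regulator in mammalian lymphocytes, was above 0 in 4 lean and 5 fat libraries, with an estimate of −0.02 (SE 0.33, adjusted p = 0.976), and 0.11 after quantile normalization. *RGS4* was above 0 in 3 lean and 5 fat libraries, at up to 0.576, with an estimate of 0.13 (SE 0.45, adjusted p = 0.881). *RGS3* was above 0 in 3 and 3, *RGS8* in 4 and 2, and *RGS16* in 2 and 2 lean and fat libraries. *RGS13* was listed at 0.

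The R7 group works as a dimer with *GNB5*. *RGS11* was the only one analyzed in its group. It was listed at 0 in 7 lean libraries and 5 fat ones, and reached 0.231 in lean and 0.748 in fat libraries. No bird was lower in fat, 5 were higher and the other 5 were at 0 on both days. The estimate of 1.09 (SE 0.41, adjusted p = 0.0954) did not pass, and it was 2.22 at a pseudocount of 0.01 and 0.26 at 1. *RGS6* and *RGS7* were above 0 in 2 and 3 lean libraries and in no fat one, and *RGS9* in 4 lean and 3 fat. Of the anchors that hold R7 proteins at the membrane, *RGS9BP* was above 0 in 5 lean and 3 fat libraries, and *RGS7BP* was listed at 0, as was *RGS22*.

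**Figure D3:**
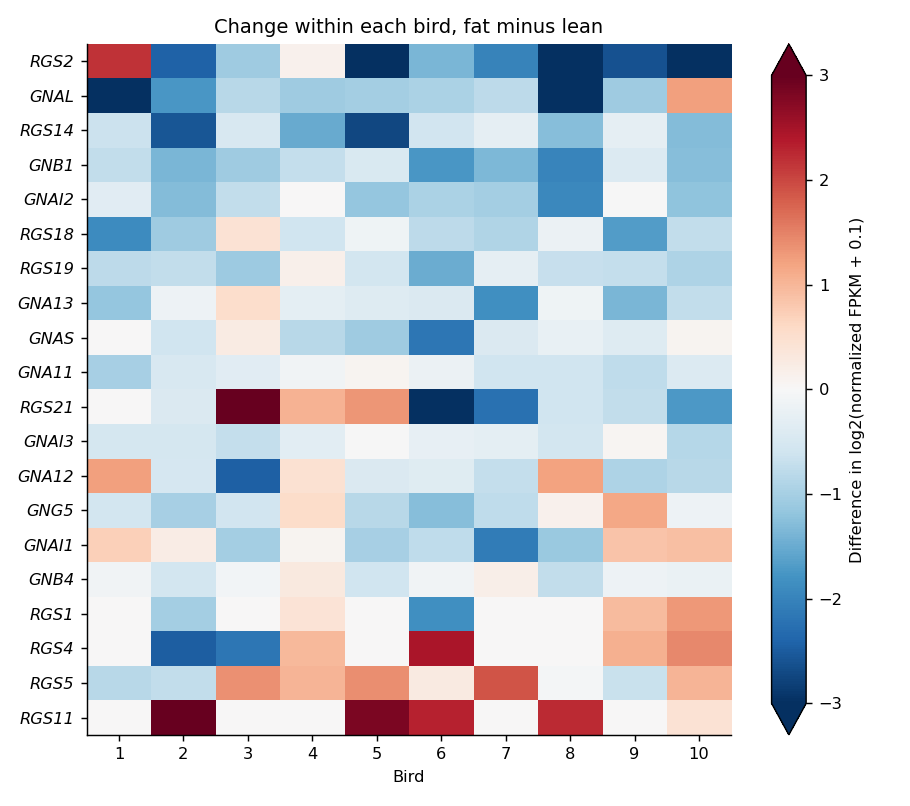
Difference between the fat and the lean library of each bird (columns) in log2(normalized FPKM + 0.1) for the 20 analyzed members (rows), with blue for lower and red for higher in fat; the scale stops at 3 in either direction. Bird 2 was lower for 18 members, bird 6 for 17 and bird 4 for 8. The median change of all genes in these birds was −0.18, −0.06 and 0.

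Birds differed in how many of the 20 members were lower in fat, from 8 in bird 4 to 18 in bird 2, and the median change over the members ranged from −0.78 in bird 6 to 0.05 in bird 4. The median change of all genes in a bird lay between −0.18 and 0. It was −0.18 in bird 2, −0.06 in bird 6 and 0 in bird 4. The share of all genes lower in each bird was not counted. Bird 4 was also the bird whose depth differed most between days, with the fat library at 0.269 times the aligned bases of the lean one, against 0.940 to 1.70 in the others. With log2 depth as a covariate beside the replicate block, 4 members stayed called, *GNAI2*, *GNB1*, *RGS14* and *RGS19*. The 8 called members were lower in 5 of 8 cases in bird 4 and in 7 or 8 of 8 in every other bird. They were called from these same differences, so the counts are no test of agreement between birds.

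Summed over each family, the alpha subunits made up 51.2 ± 13.6 normalized FPKM on day 1 and 35.0 ± 5.33 on day 5, and the beta subunits 13.1 ± 3.77 and 8.88 ± 1.32 (SD, n = 10 libraries each). Both sums were lower in fat in 10 of 10 birds, and the beta sum in 9 of 10 after quantile normalization. On day 1 the called genes *GNAI3*, *GNA11* and *GNAI2* made up a mean of 35.5%, 29.2% and 20.7% of the alpha sum. *GNB1* made up 43.1% of the beta sum. These counts of birds therefore largely repeat the calls of single genes, and the sums were not tested. The RGS sum had a median of 11.7 in lean and 7.40 in fat libraries and was lower in 9 birds, and in 7 after quantile normalization. The gamma sum was lower in 7. Within the alpha sum, the ratio of *GNAI2* to *GNAI3* had medians of 0.529 and 0.380, lower in 8 birds. Within the RGS sum, *RGS5* made up 7.55 ± 2.48% on day 1 and 18.01 ± 9.60% on day 5, and its share was higher in fat in 10 of 10 birds. That share was chosen after the values were seen, was not tested, and shows only that RGS genes changed unequally.

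**Figure D4:**
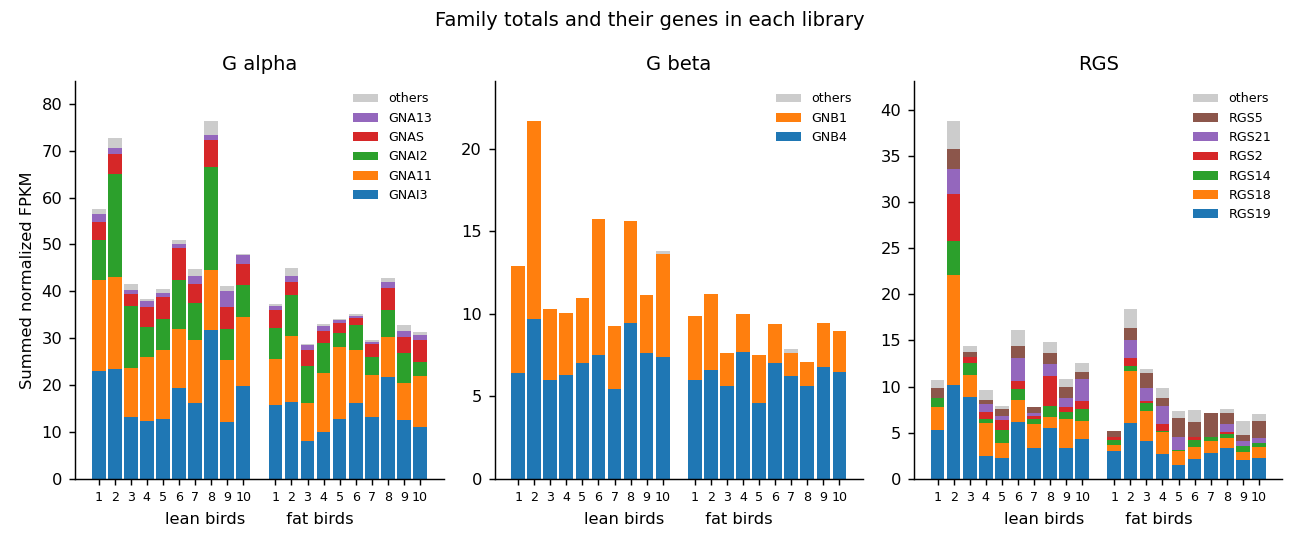
Summed normalized FPKM (y axis, from 0) of the alpha, beta and RGS families in the 10 lean and 10 fat libraries, numbered by bird and split by gene. The alpha sums span 38.4 to 76.4 on day 1 and 28.8 to 44.9 on day 5; *GNB4* makes up a median of 58.4% of the beta sum in lean and 72.8% in fat libraries, and the RGS sum of bird 2 is the highest in both groups.

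Several R4 genes lie side by side. In the zebra finch annotation to which the reads were mapped, *RGS2*, *RGS13*, *RGS1*, *RGS21*, *RGS18*, *RGS4* and *RGS5* follow each other on one sequence over 159.9 kb, with 1 other symbol between them. The first 5 span 111.6 kb on the minus strand. *RGS4* lies on the plus strand and shares 627 bases with *RGS5*, and the use of strand in the quantification was not stated, so reads of *RGS4* and *RGS5* cannot be assigned with certainty. The garden warbler annotation of RefSeq (assembly bSylBor1.pri), in which 46 of the 48 members were matched by symbol, has the same 7 genes next to each other in the same relative order with no other protein-coding gene between them. *RGS2* and *RGS18*, at either end of the minus-strand run, fell, *RGS13* was listed at 0, and *RGS1* and *RGS21* between them did not pass. Differences between the neighbors were not tested, and the 95% interval of *RGS21*, −1.74 to 0.91, holds the estimates of both genes that fell. At the far side, *RGS5* had a higher median in fat than in lean libraries and did not pass.

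**Figure D5:**
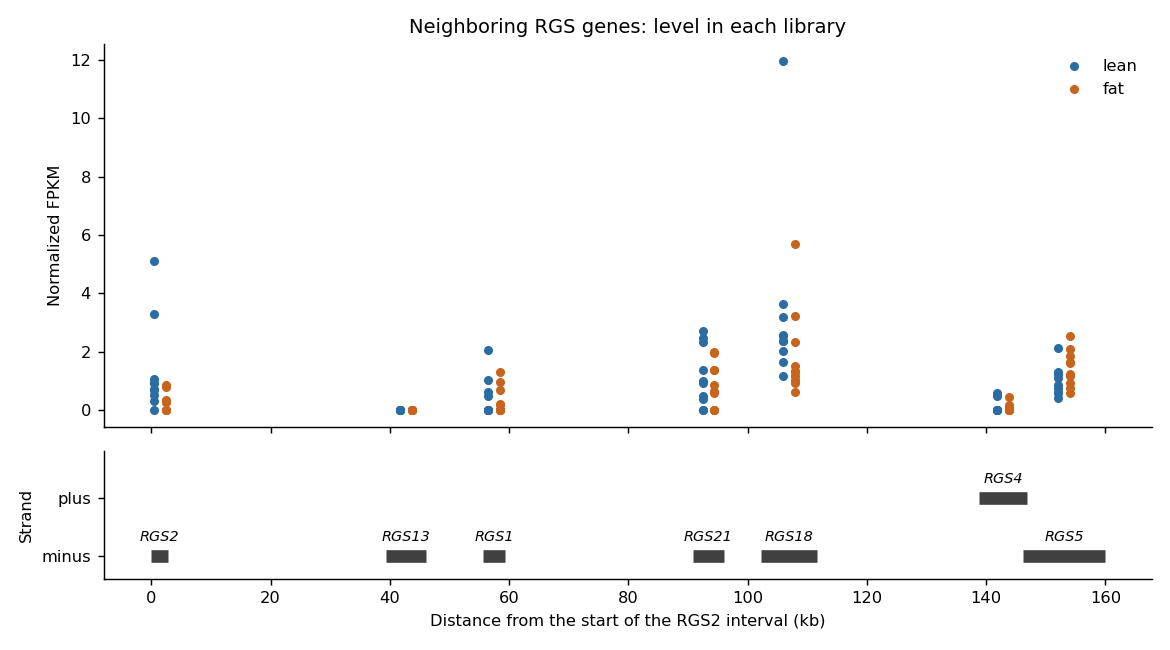
Normalized FPKM of 7 neighboring RGS genes in each library (upper panel; blue, 10 lean; orange, 10 fat) at their distance in kb from the start of *RGS2* in the zebra finch annotation, with gene extents by strand (lower panel). *RGS2* and *RGS18* have lower medians in fat than in lean libraries (0.274 against 0.817 and 1.32 against 2.45), *RGS5* a higher one (1.40 against 0.975), and *RGS13* is at 0.

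The wider pathway was followed in a list of 76 genes outside the families, which holds effectors, receptor kinases, arrestins and receptors. Of these, 44 were analyzed, 11 fell and 1 rose, that is, 25.0% called lower against 8.08% of all genes and 1 called higher against 5.18%. The median log2 fold change of the 44 was −0.68, against −0.10 over all genes. The list was chosen with earlier results of these data known, so neither comparison is independent support. Without the replicate block 2 of them were called, and leaving out bird 1, 2, 6 or 10 gave 7, 6, 5 and 6 calls. Of 13 receptors analyzed, 3 fell. The ADP receptor *P2RY1* had medians of 3.12 in lean and 1.30 in fat libraries and fell by 1.03 (SE 0.23, adjusted p = 0.0143), the thrombin receptor *F2R* fell by 1.495 (SE 0.38, adjusted p = 0.0222), and its relative *F2RL1* by 1.08 (SE 0.28, adjusted p = 0.0235). Each was lower in 9 of 10 birds, and *F2R* was called without the block as well (adjusted p = 0.0357). The ADP receptor *P2RY12* (−0.92, adjusted p = 0.175) and the thromboxane receptor *TBXA2R* (−0.37, adjusted p = 0.446) did not pass.

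Of 4 receptor kinases analyzed, 1 fell, with 2 estimates below and 2 above 0. The kinase *GRK3* had medians of 1.27 and 0.532 and fell by 1.37 (SE 0.29, adjusted p = 0.0117; 0.0300 without the block), and the arrestin *ARRB1* fell by 0.99 (SE 0.21, adjusted p = 0.0103). *PDE4B*, which breaks down cyclic AMP, had medians of 17.03 and 6.81, was lower in 10 of 10 birds and fell by 1.27 (SE 0.22, adjusted p = 0.0042). *GPSM1*, which binds GDP-bound Gi subunits, was also lower in 10 birds and fell by 1.54 (SE 0.41, adjusted p = 0.0254).

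Of the effectors, *PLCB4*, a phospholipase C beta that Gq activates, fell by 0.97 (SE 0.26, adjusted p = 0.0274), the small GTPase *RAP1B* by 0.70 (SE 0.16, adjusted p = 0.0168), and *PRKAR1A*, a regulatory subunit of protein kinase A, by 0.35 (SE 0.10, adjusted p = 0.0400). The gene that rose was an adenylyl cyclase. *ADCY9* had medians of 31.1 in lean and 36.9 in fat libraries and rose by 0.40 (SE 0.13, adjusted p = 0.0499), with 9 birds higher, while *ADCY6*, an isoform that Gi inhibits, had medians of 8.65 and 4.72 and fell by 0.79 (SE 0.25, adjusted p = 0.0496). Both cyclases lay at the edge of the threshold. *ADRB1*, a receptor for noradrenaline and adrenaline that signals through Gs, had medians of 28.8 and 41.3, and its estimate of 0.87 (SE 0.32, adjusted p = 0.0829) did not pass.

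Markers of blood cell types moved between the days as well. Avian blood holds nucleated red cells, thrombocytes and white cells, and in bulk RNA fewer cells of a type and less RNA per cell cannot be told apart. The summed level of 9 thrombocyte markers in the tables ranged from 49.2 to 153 (median 90.8) in lean and from 55.6 to 80.1 (median 66.7) in fat libraries and was lower in 7 birds. Among the 6 analyzed, *ITGA2B*, *ITGB3*, *GP1BB* and *F13A1* fell, and 1 marker had an estimate above 0 and was not called. *THBS1* was listed at 0. The 12 monocyte and heterophil markers summed to 4.54 to 31.9 (median 8.89) in lean and 0.827 to 6.59 (median 2.34) in fat libraries, lower in 10 birds, and 4 of 8 analyzed fell, with *LYZ*, *MARCO* and *CD14* at 0.

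Lymphocyte markers were low. The 7 B cell markers summed to 0.659 to 5.32 (median 2.01) in lean and 0.140 to 2.39 (median 1.35) in fat libraries, lower in 8 birds, and of 3 analyzed *BTK* fell. The 9 T cell markers summed to 0.0645 to 1.46 (median 0.450) in lean and 0 to 1.75 (median 0.117) in fat libraries, lower in 9 birds, *CD3E*, *CD2* and *CD5* were at 0, and 0 of 2 analyzed were called, with 0 at an unadjusted p under 0.05. The 9 erythroid markers had by far the highest sums of the marker lists, at 123051 to 187704 in lean and 166994 to 300975 in fat libraries, higher in fat in 10 birds. Of 9 analyzed, 8 had an estimate above 0 and 1 below, and 2 were called, *EPB42* and *TFRC*, which rose. The part of these cell types in the lower levels of the G protein and RGS genes was not tested.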

How the data were processed

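Blood RNA was made into stranded poly(A) libraries. Per the labels and methods, the authors checked reads with FastQC, aligned them with STAR to the genome of the zebra finch, and ran StringTie. The deposited tables give for each gene and library its coverage (a signal, mean depth per base), used here with FPKM only to read the depth; its FPKM, used for all results; and its TPM, used as an alternative. The authors tested read counts, which were not analyzed here.

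Lines of a symbol were summed. FPKM was scaled by median-of-ratios factors over 4487 symbols above 0 in every library. limma 3.58.1 in R 4.3.3 (moderated, with a trend, two-sided) was fitted to log2(FPKM + 0.1) of the 7800 genes that averaged 0.1 FPKM or more. Tallies and figures were made in Python 3.11.15 (pandas 2.3.3, numpy 2.4.6, matplotlib 3.10.9). The members and gene lists were chosen with earlier results of these data known. All members with that mean FPKM are named with values, the others with the libraries above 0, and of pathway genes that were called the 10 with the smallest p; *ADCY6*, *ADCY9*, *ADRB1*, *P2RY12* and *TBXA2R* were added after their values were seen. One listed marker is not reported here.

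Replicate numbers were taken to mark the same bird. After removal of group means, the libraries of a bird correlated with r of 0.152 to 0.382 (median 0.236, 10 birds), against a median of −0.0245 between birds. Codes of 8 birds match the study's sample table. Those of birds 8 and 10 do not, and their pairing rests on the replicate number. On simulated data with normal noise, changes of 1 and 2 on the log2 scale were recovered for 48% and 86% of 100 genes each. There were 5 false calls among the unchanged genes of the 7800. Genes with many values at 0 are not represented by such noise. Alternatives were a pseudocount of 0.01 or 1, a filter at 1 FPKM or none, unscaled FPKM, TPM as deposited, quantile normalization, no replicate block, the 8 birds with matching codes, log2 depth as a covariate, and leaving out each bird.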

Additional observations from a re-analysis of the deposited data

Results flagged for a closer look

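The values of each analyzed member were searched for a library far from the rest of its group, by the gap to the nearest other library against the range of the group. Of 40 groups of 10 libraries (20 genes, lean and fat), 9 held such a library. The cutoff flags about 1 in 20 groups when values are normally distributed. The values here were not log-transformed and were 0 in many libraries for some genes. The 9 flags can therefore not be set against that rate. The lean library of bird 2 accounted for 4 of the 9, for *RGS18* (11.96 normalized FPKM, next 3.62), *RGS14* (3.70, next 1.41), *RGS5* (2.11, next 1.31) and *RGS1* (2.06, next 1.02). The fat library of bird 2 stood apart for *RGS18* as well (5.70, next 3.22). The lean library of bird 2 was the shallowest, at 0.882 gigabases, and the part of depth in these values was not tested. The other 4 were *GNA13* in the lean library of bird 9 (3.33, next 1.95), *GNA12* in the lean library of bird 3 (0.448, next 0.210), *RGS11* in the lean library of bird 10 (0.231, next 0.0077) and *RGS4* in the fat library of bird 6 (0.444, next 0.170).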

How the results depend on the processing

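The fit without the replicate block called 1 member lower (8 with it), 255 genes lower and, rounded, 1.2e+02 higher over all genes (630 and 404) and 2 pathway genes (12). The 8 birds with matching codes gave 2 (*GNB1*, and *GNAL*, which was not among the 8), 172, 129 and 1, log2 depth as a covariate 4, 368, 247 and 7, FPKM as deposited 13, 1444, 75 and 20, and TPM as deposited 13, 1954, 53 and 23. Both deposited units kept the 8 calls and added *GNA13*, *GNAL*, *GNAS*, *GNB4* and *GNG5*. Quantile normalization called 5 members, 350 lower genes and 7 pathway genes, and no filter 5 members, 345 lower and 251 higher genes. The 5 were *GNA11*, *GNAI2*, *GNAI3*, *GNB1* and *RGS19* in both, so *RGS14*, *RGS18* and *RGS2* were called in neither. Leaving out 1 bird gave 3 to 7 members, 336 to 708 lower genes, 218 to 425 higher genes and 5 to 12 pathway genes. No setting called a member higher. Estimates near 0 changed sign: *RGS1* was 0.22 at a pseudocount of 0.01 and 0.11 after quantile normalization, *RGS4* −0.0083 at a pseudocount of 1 and −0.0215 in the 8 birds, and *GNA12* 0.19 and *GNAI1* 0.13 after quantile normalization. Without 1 bird, *RGS1* ranged from −0.17 to 0.18, *RGS21* from −0.89 to 0.0566 and *RGS4* from −0.13 to 0.42. The 15 members other than *RGS1*, *RGS4*, *RGS21*, *GNA12* and *GNAI1* kept their sign under each setting that analyzed them, and *GNAL*, *RGS2*, *RGS11* and *RGS14* were not analyzed at a mean FPKM of at least 1. The cause of these differences was not tested.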
